A study of Mus musculus with 12 samples.

Results

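The 7 genes described here are those listed as Col1a1, Postn, Pdgfrb, Prrx1, Acta2, Sparc and Lama1 in a table of allelic expression that holds 14899 genes. They were chosen by name, as genes of mesenchyme and of basement membrane, and all 7 were found. Polyadenylated RNA was sequenced from mouse cells whose 2 genome copies come from different strains, 129Sv and Cast/EiJ, so that reads over strain differences can be given to 1 copy. The 2 embryonic stem (ES) lines were F1-21.6, with sex chromosomes XX, and F1-23, with XY. ES cells were kept with leukaemia inhibitory factor and serum on mouse embryonic fibroblasts that mitomycin C had stopped from dividing. Neural progenitor cells (NPC) were differentiated from both lines and grown as clones, XX clones 129, C2, G4 and E1.2 from F1-21.6 and XY clones mC3, mE6, mB4 and mG3 from F1-23. All groups share the hybrid genome, clone 129 is a clone name and not the 129 copy, and clone values below follow the order in which the clones are named here.

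Each ES line has 1 library and each of the 8 NPC clones has 1 library, with 61375911 to 119266777 allele-informative counts per library. An NPC clone is the progeny of 1 cell, so the spread between clones includes differences between founder cells. Whether feeder cells were removed before RNA was taken, and the strain of the feeders, are not given in the sources used here. Among the NPC clones the line of origin, the sex chromosomes and a prefix of the library names coincide and cannot be told apart. Of the 6 pluripotency genes in the table all 6 were lower in NPC, with Tcfcp2l1 at 138.5 and 48.9 FPKM in the ES lines and 0.0489 or less in every clone. The neural progenitor markers Fabp7 and Olig2 were present in all clones, at 1533 to 3426 FPKM and 260.1 to 380.9 FPKM. Either gene was at 0.0295 FPKM or less in the ES lines. Of the 19 neural progenitor genes tested, 13 were higher in NPC than in ES, 1 was lower and 5 did not pass. The lower one was Sox2, also a defining marker of these cells. Over all genes tested 33.3% were higher and 29.7% lower. FPKM corrects fragment numbers for the size of the library and the length of the transcript, so levels may be compared between genes.

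Mesenchymal cells such as fibroblasts, smooth muscle cells and pericytes build a matrix of fibrillar collagen and regulate its tension. A basement membrane is a thin sheet of laminin, type IV collagen, nidogen and perlecan on which epithelia and early embryonic cells sit. Fibroblast feeders are mesenchymal cells, and the neural lineage has its own basement membrane around the neural tube and brain vessels. In bulk RNA, fewer cells of a type and less RNA per cell cannot be told apart.

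Of the 7 genes, 5 changed between NPC and ES by edgeR's quasi-likelihood test on counts at a Benjamini-Hochberg adjusted p of 0.05. The share called over all 14561 genes tested was 63.0%, with 33.3% higher and 29.7% lower, so 5 of 7 is near the background of this contrast. Lama1, Postn, Col1a1 and Pdgfrb fell and Sparc rose. Prrx1 and Acta2 did not pass by counts, and the Acta2 counts are shared with a neighbouring gene, as set out with that gene. In FPKM all 8 clones lay under both ES lines for 5 of the 7 genes, as for 30.7% of all genes, and over both for Sparc, as for 31.9%. Without the ES XY library 3 of 7 were called, since Postn and Pdgfrb were lost, and without NPC clone 129 all 7 were called.

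**Figure D1:**
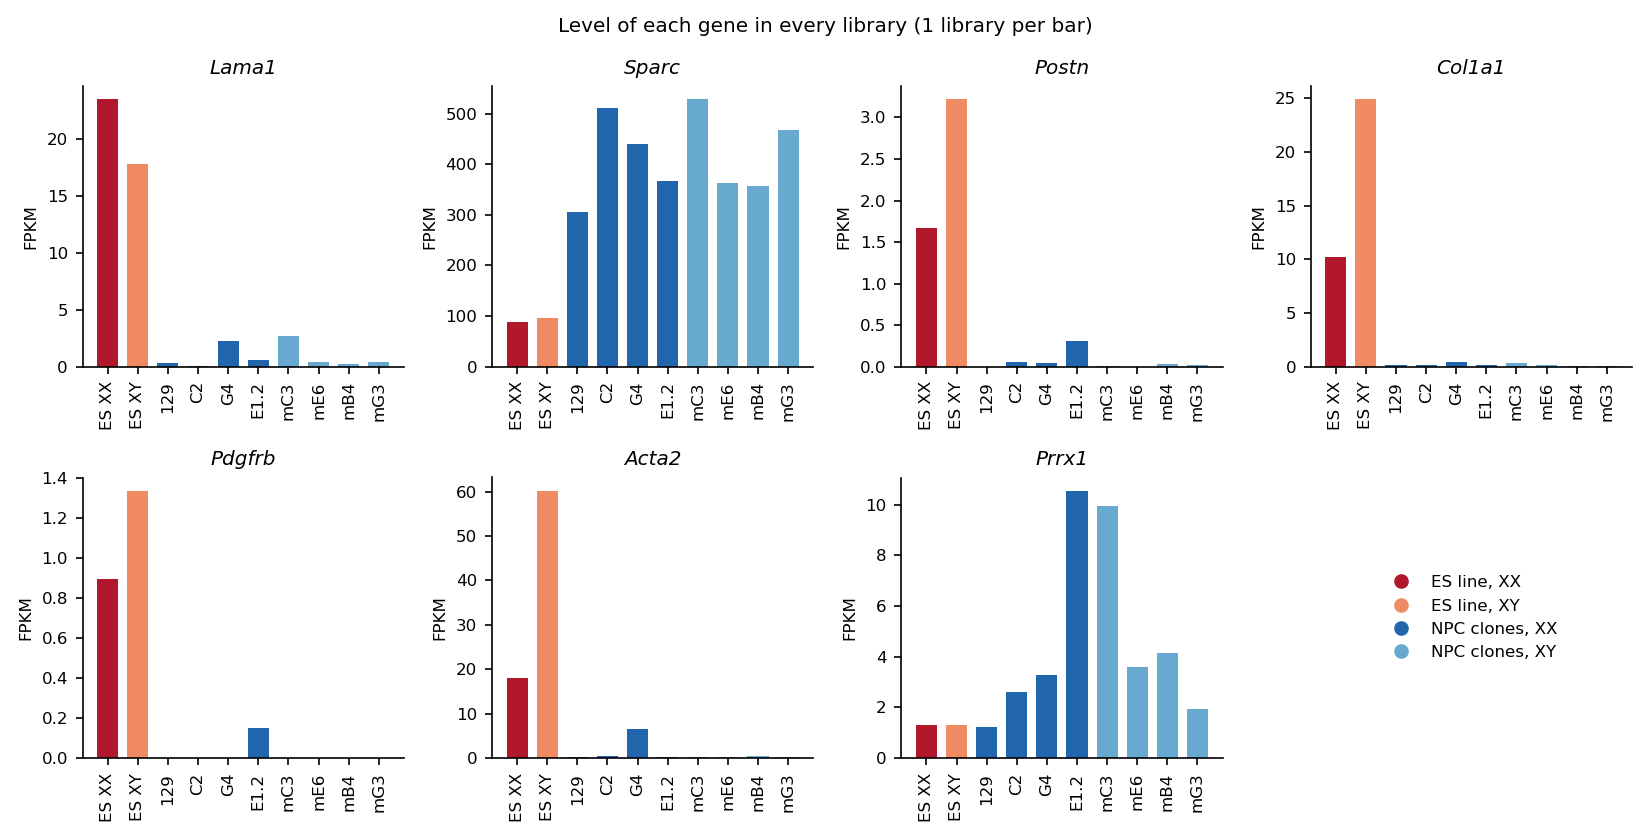
FPKM of the 7 genes (vertical axes, linear, 1 scale per gene) in the 2 ES lines and the 8 NPC clones, 1 bar per library. Lama1, Postn, Col1a1, Pdgfrb and Acta2 stand highest in the ES lines, Sparc stands highest in the clones, and Prrx1 reaches 10.5 FPKM in clone E1.2 and 9.95 FPKM in clone mC3.

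Lama1 encodes the laminin alpha 1 chain, the alpha chain of the laminin that early embryos lay down first. In the genome build mm9 its row spans chr17:68046548-68172046, and GENCODE vM1, of the same build, gives it 63 exons on the forward strand. Its level was 23.5 FPKM in the ES XX line and 17.9 FPKM in the ES XY line. The XX clones had 0.330, 0.0400, 2.24 and 0.626 FPKM. The XY clones had 2.66, 0.445, 0.259 and 0.385 FPKM. Both ES lines were above every clone, and G4 and mC3 stood above the other clones. By counts Lama1 fell by 4.66 on the log2 scale in NPC against ES (SE 1.05, edgeR adjusted p = 0.00394, lower in 8 of 8 clones). The mean was 20.7 ± 4.00 FPKM in ES (SD, n = 2) and 0.873 ± 0.994 FPKM in NPC (SD, n = 8).

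The laminin chains that pair with the alpha 1 chain did not pass the test. Lamb1 and Lamc1, the beta 1 and gamma 1 chains that assemble with several alpha chains, had log2 differences of -0.03 (edgeR adjusted p = 0.934) and 0.03 (edgeR adjusted p = 0.937). Lamb1 lay between 25.1 and 50.8 FPKM in the clones against 31.6 and 43.8 FPKM in the ES lines. The 27 basement membrane genes tested held 5 that rose, 8 that fell and 14 that did not pass. Over all genes tested 33.3% rose and 29.7% fell. The median log2 difference was 0.03 in this list against 0.11 over all genes tested. The fallers included Lama3, a laminin alpha chain of epithelia, at 0.896 and 1.05 FPKM in the ES lines and 0.00897 to 0.137 FPKM in the clones. Col4a5, an X-linked type IV collagen chain, rose by 3.23 on the log2 scale (SE 0.63, edgeR adjusted p = 0.00171), from 0.345 and 0.937 FPKM in the ES lines to between 3.83 and 12.2 FPKM in the clones. In place of 8, 6 of the 27 fell without G4, as also without E1.2 and by FPKM with limma.

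The receptors that read laminins moved in both directions, as all genes did. Of 10 tested, 4 rose, 3 fell and 3 did not pass, where 33.3% of all genes rose and 29.7% fell. Dag1, which encodes dystroglycan, rose by 1.99 (SE 0.18, edgeR adjusted p = 1.88e-05), from 39.4 and 43.0 FPKM in the ES lines to between 140.9 and 211.2 FPKM in the clones. Its sarcoglycan partners Sgcb and Sgce rose too, by 3.30 (SE 0.25, edgeR adjusted p = 8.69e-06) and 2.73 (SE 0.36, edgeR adjusted p = 0.000167). Itga3 and Itgb4, integrin chains that bind laminin in epithelia, and Bcam, a laminin-binding adhesion molecule, fell by 7.70, 6.42 and 4.42 on the log2 scale.

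Sparc encodes a secreted collagen-binding glycoprotein that is abundant in basement membranes, in fibroblasts and in glia. Its row spans chr11:55208002-55233705 and GENCODE vM1 gives it 10 exons on the reverse strand. The ES lines had 88.4 and 97.0 FPKM. The XX clones had 305.9, 511.0, 439.6 and 367.2 FPKM, and the XY clones 528.5, 363.6, 356.4 and 467.5 FPKM. All 8 clones lay above both ES lines, and the XX and XY clones overlapped. Sparc rose by 2.11 on the log2 scale (SE 0.26, edgeR adjusted p = 0.000118, higher in 8 of 8 clones), and the mean of the clones, 417.5 ± 80.8 FPKM (SD, n = 8), was 4.50 times that of the ES lines. It was the highest of the 7 genes in every library, and the only one of them called as higher in NPC by this test.

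Matricellular proteins are secreted proteins that modulate the matrix without building it, and Sparc and Postn both belong to them. Of 17 tested, 4 rose, 6 fell and 7 did not pass, where 33.3% of all genes rose and 29.7% fell. Sparcl1, the closest relative of Sparc, was at 0.204 and 0.0852 FPKM in the ES lines and between 20.2 and 465.0 FPKM in the clones, where E1.2 was highest. Tnc, tenascin C of the neural stem cell matrix, rose by 6.08 (SE 0.95, edgeR adjusted p = 0.00049), and Spp1, osteopontin, fell by 6.85 (SE 0.66, edgeR adjusted p = 2.8e-05) from 283.7 and 234.2 FPKM in the ES lines. By FPKM with limma 8 of the 17 fell in place of 6.

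Postn encodes periostin, a matricellular protein of periosteum, tendon and activated fibroblasts. Its row spans chr3:54165028-54194963, and GENCODE vM1 gives it up to 23 exons on the forward strand. It was low everywhere, at 1.67 FPKM in the ES XX line and 3.22 FPKM in the ES XY line. Clone 129 and clone mE6 had no count, which allows up to 3 counts of each library's total. The other XX clones had 0.0532, 0.0405 and 0.305 FPKM, and the other XY clones 0.00481, 0.0336 and 0.0233 FPKM. No clone reached either ES line, and E1.2 was 5.73 times the next clone. Postn fell by 6.08 on the log2 scale (SE 1.57, edgeR adjusted p = 0.00802, lower in 8 of 8 clones). The call rests on the ES XY library, since without it the difference was -3.89 with an edgeR adjusted p of 0.145.

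Col1a1 encodes a chain of type I collagen, the main fibrillar collagen of fibroblasts and bone. Its row spans chr11:94797583-94813749, on the forward strand in GENCODE vM1 with 51 exons. The ES XX line had 10.2 FPKM and the ES XY line 24.9 FPKM. The XX clones had 0.145, 0.141, 0.422 and 0.161 FPKM, and the XY clones 0.298, 0.143, 0.0924 and 0.0709 FPKM. Every clone was below 0.5 FPKM, and G4 was highest. Col1a1 fell by 6.34 on the log2 scale (SE 0.79, edgeR adjusted p = 0.000128, lower in 8 of 8 clones), and the ES mean was 95.4 times the NPC mean in FPKM.

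Genes that make or process fibrillar collagen moved in both directions, as all genes did. Of 27 tested, 8 rose, 6 fell and 13 did not pass, where 33.3% of all genes rose and 29.7% fell. Lox, the enzyme that crosslinks collagen, was at 5.69 and 6.78 FPKM in the ES lines and at 0.246 FPKM or less in the clones. Serpinh1, the collagen chaperone of the endoplasmic reticulum, rose by 2.70 (SE 0.22, edgeR adjusted p = 1.21e-05) to between 234.1 and 506.0 FPKM. Bmp1, which cleaves procollagen, rose by 4.02 (SE 0.55, edgeR adjusted p = 0.000227), and Leprel1, a collagen prolyl hydroxylase, by 4.60 (SE 0.88, edgeR adjusted p = 0.00157).

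Pdgfrb encodes the receptor for platelet-derived growth factor B and marks pericytes and fibroblasts. Its row lies on chromosome 18, from 61204803 to 61244721, with 24 exons on the forward strand in GENCODE vM1. The ES lines had 0.894 and 1.34 FPKM, from 617 and 889 counts. Of the 8 clones 6 had 0 counts, C2 had 1 count and E1.2 had 151 counts, at 0.149 FPKM. Pdgfrb fell by 9.27 on the log2 scale (SE 2.27, edgeR adjusted p = 0.00609, lower in 8 of 8 clones). The size of that difference moved with single libraries, to -11.7 without E1.2, -13.1 without the ES XX library and -4.71 without the ES XY library, where the edgeR adjusted p was 0.199. Of the 6 PDGF ligands and receptors tested none rose and 2 fell, Pdgfrb and its ligand Pdgfb. Over all genes 33.3% rose and 29.7% fell. Pdgfa and Pdgfra did not pass, and Pdgfa lay between 17.9 and 94.5 FPKM in the clones with its highest value in E1.2.

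The transforming growth factor beta pathway induces fibrillar collagens, periostin and smooth muscle actin in fibroblasts. Of its 15 genes tested 6 rose, 6 fell and 3 did not pass, where 33.3% of all genes rose and 29.7% fell. Tgfbr2, a receptor, rose by 4.24 (SE 0.36, edgeR adjusted p = 1.57e-05), while Tgfb1, a ligand, Eng, a co-receptor, and Smad7, an inhibitor that the pathway induces, fell by 3.06, 5.56 and 5.23 on the log2 scale. Among 10 genes of the epithelial to mesenchymal transition, 5 rose, 2 fell and 3 did not pass, against the same shares over all genes. Cdh1, E-cadherin, was at 84.7 and 149.2 FPKM in the ES lines and at 0.207 FPKM or less in the clones, and Cdh2, N-cadherin, was at 1.29 and 1.95 FPKM in the ES lines and 66.8 to 101.4 FPKM in the clones. Zeb1, a repressor of E-cadherin, rose by 4.90 (SE 0.43, edgeR adjusted p = 1.72e-05).

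Acta2 encodes smooth muscle actin, which serum response factor induces through DNA elements called CArG boxes. A promoter window is shown for Acta2, the 1 gene of the 7 that stood 4 times above all other clones at 1 FPKM or more, and for Postn, the other of the genes whose window held a searched motif. The windows are the 250 bases before a RefSeq start in GRCm38.p6, a later build than that of the expression files, written 5′ to 3′ on the gene's strand. Capitals mark each CArG box, here CC, then 6 bases of which at least 5 are A or T, then GG, and each TATATAA, both searched on both strands.
Acta2, chr19:34255374-34255623, reverse strand: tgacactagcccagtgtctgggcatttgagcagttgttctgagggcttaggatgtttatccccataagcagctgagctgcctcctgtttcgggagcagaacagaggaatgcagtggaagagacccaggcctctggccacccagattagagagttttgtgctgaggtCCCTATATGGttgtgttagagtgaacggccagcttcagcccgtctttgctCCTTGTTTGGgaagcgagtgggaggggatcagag
Postn, second RefSeq start, chr3:54360857-54361106, forward strand: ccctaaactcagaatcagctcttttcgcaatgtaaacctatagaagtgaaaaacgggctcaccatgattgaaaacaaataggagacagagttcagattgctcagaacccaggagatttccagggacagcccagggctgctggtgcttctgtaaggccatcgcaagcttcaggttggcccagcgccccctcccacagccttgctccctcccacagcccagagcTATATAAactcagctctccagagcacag
The Acta2 window held 2 CArG boxes, from 84 to 75 and from 34 to 25 bases before the start, and at least 2 were found in 0.67% of 32851 promoter windows of the same length. The Postn window held TATATAA from 28 to 22 bases before the start, found in 3.04% of windows. The windows of Sparc, of Prrx1 and of the first Postn start held neither, and Col1a1, Lama1 and Pdgfrb are not shown. A match describes the letters and not a bound site.

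The deposited Acta2 row spans chr19:34308415-34330096. GENCODE vM1 places Acta2 at chr19:34315580-34329826 on the reverse strand with 9 exons, so the row extends 7165 bp past its annotated 3′ end. Over 6404 bp, 29.5% of the row, it overlaps the row of Stambpl1, a deubiquitinase gene on the forward strand, and this stretch holds 6 of the 14 exon blocks of Stambpl1. The annotated genes themselves are separated by 756 bp. Acta2 had 4453 and 12715 counts in the ES lines, 6028, 5969, 5665 and 6229 in the XX clones, and 8735, 8743, 8168 and 9327 in the XY clones. Stambpl1 had 1357 and 1568 counts in the ES lines and more counts than Acta2 in 7 of the 8 clones. In G4 alone among clones Acta2 had more counts than Stambpl1, by 1352. Acta2 counts of the clones therefore cannot be told apart from those of Stambpl1 and its FPKM is given beside them.

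**Figure D2:**
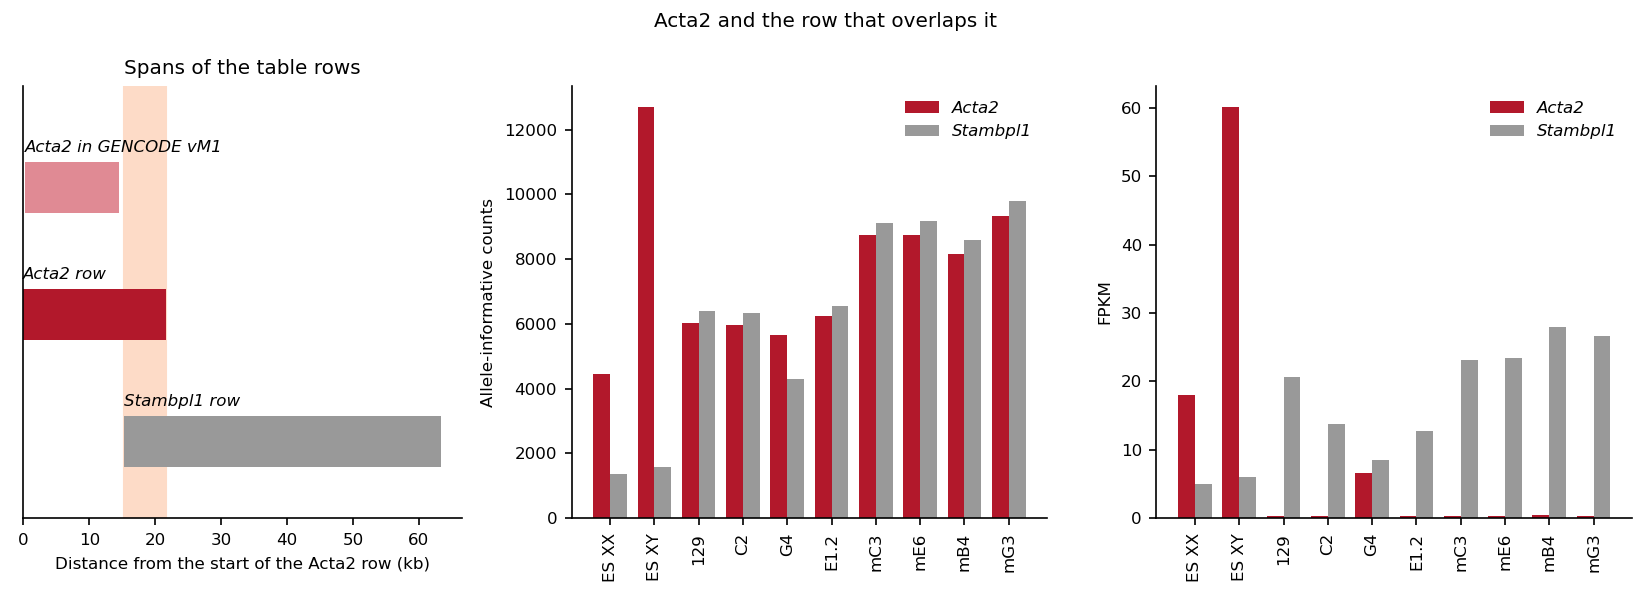
Left, spans of the Acta2 and Stambpl1 rows and of Acta2 in GENCODE vM1, in kb from the start of the Acta2 row (shaded: where the rows overlap). Middle and right, allele-informative counts and FPKM of both rows in every library, where Acta2 counts follow Stambpl1 counts in 7 of 8 clones while Acta2 FPKM stays at 0.429 or less in those 7.

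In FPKM the ES lines had 17.9 and 60.2, the XX clones 0.342, 0.376, 6.52 and 0.349, and the XY clones 0.303, 0.284, 0.429 and 0.242. Clone G4, at 6.52 FPKM, had 15.2 times the next clone. No clone reached either ES line. By FPKM Acta2 fell by 4.36 on the log2(FPKM + 1) scale (limma adjusted p = 0.000535), where 63.2% of 14899 genes were called, 31.9% as lower. By counts the difference was -0.40 (SE 0.21, edgeR adjusted p = 0.116), and without the ES XY library it was 0.01. By FPKM 6 of the 7 genes were called, all but Prrx1, and Lama1, Sparc, Postn, Col1a1 and Pdgfrb had the same direction by counts and by FPKM.

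The mural and smooth muscle list held 11 genes tested, of which 1 rose, 5 fell and 5 did not pass. Its median log2 difference was -1.75. Over all genes tested 33.3% rose and 29.7% fell, with a median of 0.11. Tagln, an actin-binding protein of smooth muscle, was at 13.8 and 97.1 FPKM in the ES lines and 1.42 FPKM or less in the clones. Des, desmin, and Tpm2, a tropomyosin, fell by 7.52 and 5.59 on the log2 scale. Notch3, a receptor of mural cells that neural progenitors also carry, rose by 0.64 (SE 0.21, edgeR adjusted p = 0.0237). The fibroblast and mesenchyme list held 15 genes tested, none of which rose, 6 of which fell and 9 of which did not pass, with a median of -1.64. The fallers were Col1a1, Postn, Pdgfrb, Thy1, Fn1 and Fbln2, and 3 of these are among the 7 genes.

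Prrx1 encodes a homeodomain factor of limb and craniofacial mesenchyme. Its row spans chr1:165175133-165243812, on the reverse strand in GENCODE vM1. Both ES lines had 1.29 FPKM. The XX clones had 1.23, 2.63, 3.26 and 10.5 FPKM, and the XY clones 9.95, 3.598, 4.14 and 1.93 FPKM. Clone 129 lay below the ES lines and the other 7 clones above them. The difference was 2.07 on the log2 scale (SE 0.93, edgeR adjusted p = 0.0779, interval of 2 SE from 0.21 to 3.93), which did not pass. It passed with DESeq2 (adjusted p = 0.0127), without clone 129 (edgeR adjusted p = 0.0429) and over the ES lines and XY clones alone (edgeR adjusted p = 0.0456). The order among clones was E1.2, mC3, mB4, mE6, G4, C2, mG3 and clone 129, and E1.2 and mC3 differed by a factor of 1.06. Its relative Prrx2 was at 2.87 and 3.30 FPKM in the ES lines and at 1.51 to 10.8 FPKM in the clones, with clone 129 highest.

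Between XX and XY clones none of the 6 genes that passed the count filter was called, where 1.29% of 13591 genes were. Pdgfrb did not pass that filter. The largest difference of the 6 in relation to its error was that of Acta2 counts, which are shared with Stambpl1. They were lower in XX clones by 0.72 on the log2 scale (SE 0.17, edgeR adjusted p = 0.0677). The Acta2 FPKM difference had the other sign, at 0.66. Sparc differed by -0.06 (interval of 2 SE from -0.48 to 0.35) and Lama1 by -0.14 (interval from -2.46 to 2.19). Whether the NPC against ES difference depended on the line was called for none of the 7 genes by counts, where 0.101% of 14848 genes were. For Col1a1 that interaction was 1.57 (SE 1.79, edgeR adjusted p = 0.860) by counts and 1.28 by FPKM, where limma gave an adjusted p of 0.0328 in a fit added after the data were seen. Each ES line has 1 library, so this term takes its spread from the clones.

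The share of counts from the 129 copy separates the 7 genes in the ES lines. Sparc was near equal, with 47.3% (exact 95% Clopper-Pearson interval 45.9% to 48.6%) in ES XX and 51.7% (50.4% to 53.0%) in ES XY. Lama1 leaned to Cast at 38.9% and 37.9%, from 31598 and 25112 counts. Prrx1 leaned to Cast as well, at 34.5% and 32.6%. The median share over all autosomal genes with at least 20 counts was 49.94% in ES XX and 49.97% in ES XY. Intervals cover counting error only, since reads without molecular identifiers are not independent molecules.

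Postn, Col1a1, Pdgfrb and Acta2 leaned to 129 in both ES lines. In ES XX all 712 Postn counts were from 129, and the 0 Cast counts allow a Cast share of up to 0.421%. In ES XY 85.1% of 1611 Postn counts were from 129 (83.3% to 86.8%). Pdgfrb had 78.6% of 617 counts (75.2% to 81.8%) in ES XX and 86.1% of 889 counts (83.6% to 88.3%) in ES XY. Col1a1 had 97.3% of 1189 counts (96.2% to 98.2%) in ES XX and 61.0% of 3166 counts (59.3% to 62.7%) in ES XY. Acta2, with its Stambpl1 counts, had 78.6% in ES XX and 53.1% in ES XY. A share of 75% or more was reached by 4 of the 7 genes in ES XX, where 6.59% of genes reach it, and by 2 of 7 in ES XY, where 5.76% do. Postn and Pdgfrb reached it in both lines, as did 3.09% of genes.

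Col1a1 differed between the ES lines most in its Cast copy. In counts scaled to the library total (CPM), the 129 copy of Col1a1 had 17.1 in ES XX and 27.3 in ES XY, and the Cast copy had 0.473 and 17.4. For the Acta2 row, which overlaps Stambpl1, the 129 copy had 51.7 and 95.2, and the Cast copy 14.1 and 84.2. In ES XX the Acta2 row had 952 Cast counts, while the Stambpl1 row had 1357 counts, 45.2% of them from 129. The values per copy, and their difference between the lines, therefore cannot be given to Acta2 alone. For Pdgfrb the 129 copy had 7.16 and 10.8 and the Cast copy 1.95 and 1.75. The Col1a1 and Acta2 shares of the ES lines have intervals that do not overlap, and with 1 library a line this compares the libraries.

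**Figure D3:**
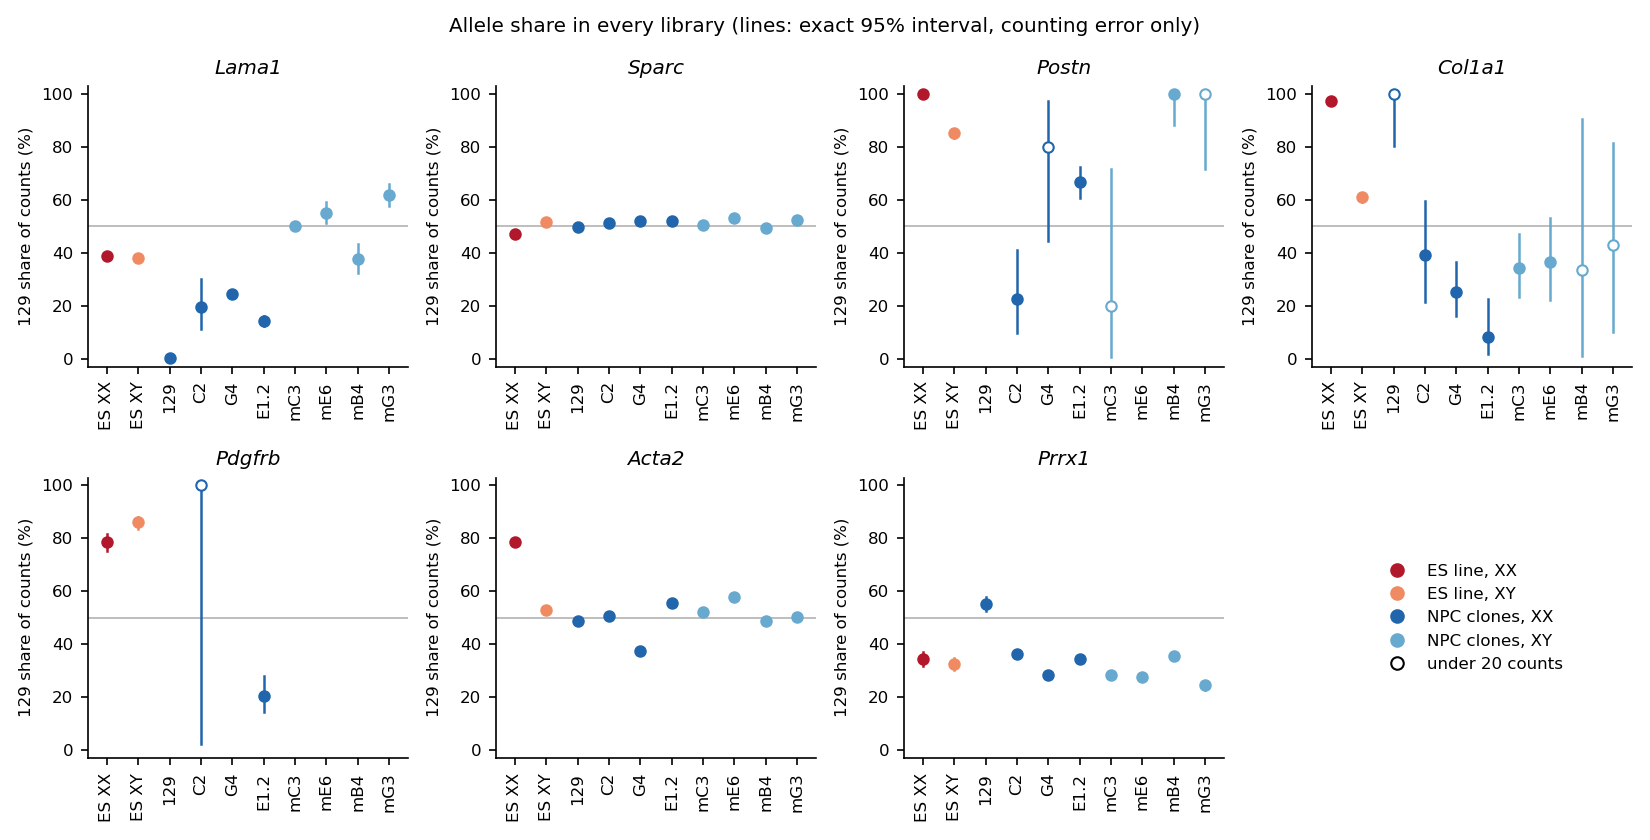
Share of allele-informative counts from the 129 copy in percent (vertical axis) for the 7 genes in every library, with exact 95% intervals that cover counting error and open circles for under 20 counts. Postn, Col1a1 and Pdgfrb lie above 60% in both ES lines, Sparc stays between 47.3% and 53.1% in all 10 libraries, and Lama1 spreads from 0.274% in clone 129 to 61.9% in clone mG3.

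Other genes of fibroblasts, mural cells and matrix are given here without the 7 genes, a choice made after the shares were seen. The median 129 share over the fibroblast list was 70.2% in ES XX and 57.2% in ES XY, with 7 and 8 genes at 20 counts or more. It was 57.7% and 54.5% over 9 genes of the mural list and 71.8% and 59.4% over 14 genes of the matricellular list. The 25 other genes of the fibrillar collagen list had medians of 58.4% and 53.8%. The 20 other basement membrane genes had medians of 51.3% and 51.9%. A share of 75% or more was found in ES XX for 2 of 7 fibroblast, 3 of 9 mural, 7 of 14 matricellular and 3 of 25 fibrillar collagen genes. In ES XY it was found for 1 of 8, 1 of 9, 5 of 14 and 5 of 25. Over all autosomal genes with at least 20 counts, 6.59% reached it in ES XX and 5.76% in ES XY. Lox had 96.0% and 92.6%, Tnc 99.0% and 94.4%, Thbs2 97.4% and 82.7%, Des 85.03% and 77.2%, and Tagln 91.4% and 54.5%. Not all leaned to 129, since Tpm2 had 6.86% and 2.93% and Fn1, the most abundant of the fibroblast list, 51.7% and 51.8%.

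Of the defining fibroblast markers in the table, Col1a1, Col3a1, Pdgfra, Twist2, Lum and Dcn, none was at 0 FPKM in either ES line. This does not set the ES lines apart, since Col1a1, Col3a1, Pdgfra and Lum were above 0 FPKM in every clone too. Lum was lowest, at 0.0762 and 0.0832 FPKM with 1 and 0 counts, and Col1a1 was highest. Pdgfra was at 0.432 and 0.427 FPKM in the ES lines and at 0.202 to 1.43 FPKM in the clones. The summed level of the 15 fibroblast genes was 274.7 and 289.4 FPKM in the ES lines and 24.3 to 161.7 FPKM in the clones, and without Fn1 it was 41.7 and 65.8 FPKM in the ES lines and 13.3 to 60.3 FPKM in the clones. ES cells were grown on fibroblasts, and the part of feeder RNA in these levels and shares was not tested.

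**Figure D4:**
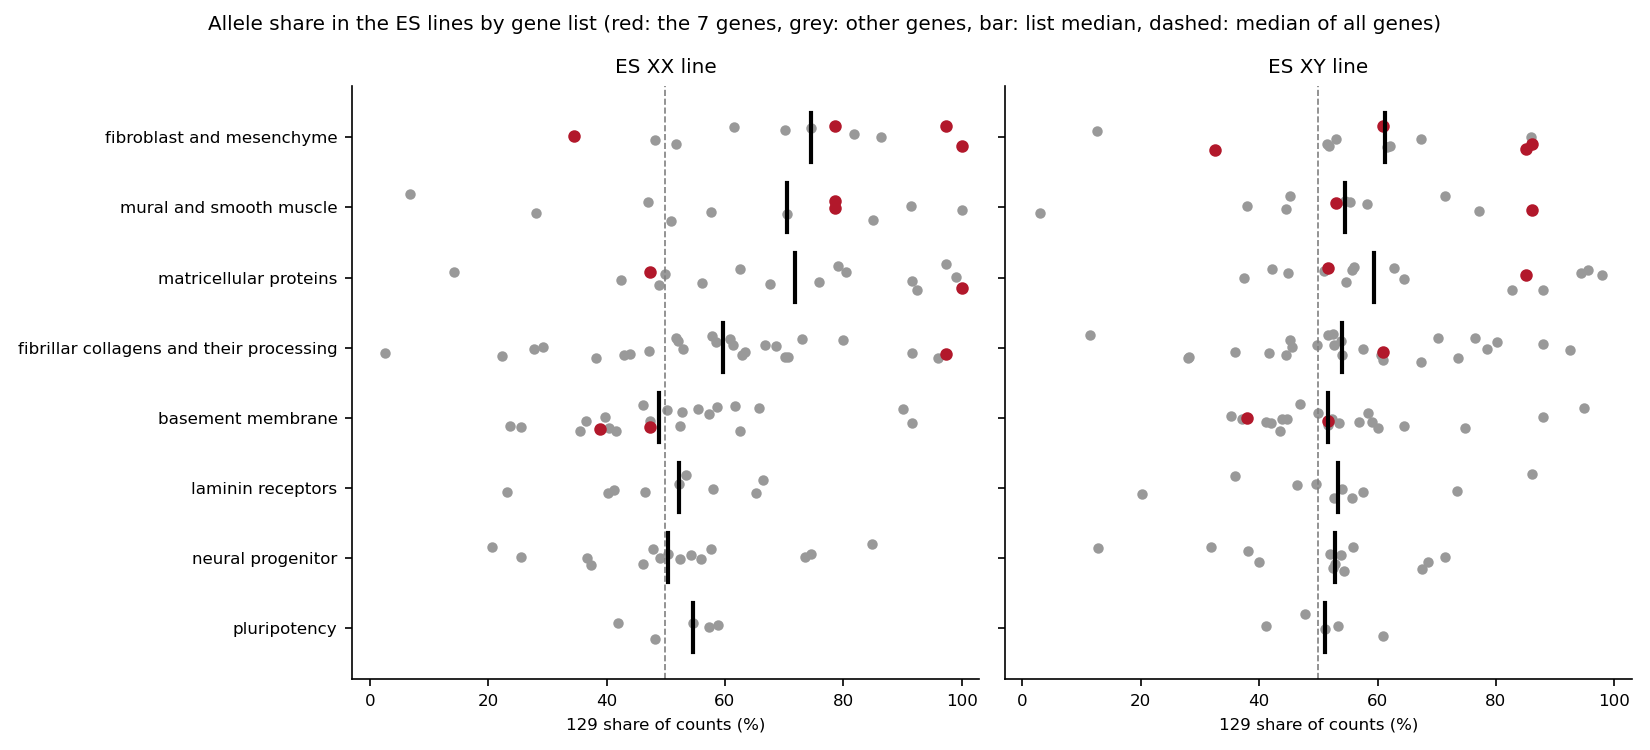
Share of counts from the 129 copy in percent (horizontal axis) in each ES line for genes with at least 20 counts, by gene list, with red points for the 7 genes, black bars for list medians, which include the 7 genes, and a dashed line for the median of all genes. The medians of the fibroblast, mural and matricellular lists lie at 70.6% to 74.6% in ES XX and at 61.3%, 54.5% and 59.4% in ES XY. Those of basement membrane, laminin receptor, neural progenitor and pluripotency genes lie nearer the dashed line. In ES XY the mural median is close to that of the laminin receptors, at 53.3%.

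Across NPC and ES the 129 share was tested for the 4 genes with enough counts, Lama1, Sparc, Acta2 and Prrx1, and was called for none, where 18.9% of 10940 genes were. The difference for Acta2 was -1.01 on the log2 odds scale (SE 0.40, edgeR adjusted p = 0.112), and that for Sparc 0.10 (interval of 2 SE from -0.05 to 0.26). Without the ES XY library Acta2 was called, with a difference of -1.87 (edgeR adjusted p = 0.00853). In the clones the Acta2 counts cannot be told apart from those of Stambpl1, so neither value can be given to Acta2 alone. Col1a1 could be tested under 4 other settings, at a minimum of 10 counts or with 1 clone left out, where fewer clones were required. Clone 129 had 17 Col1a1 counts, all from the 129 copy. It was called without clone 129, with a difference of -4.05 (SE 1.22, edgeR adjusted p = 0.0491), and not with a minimum of 10 counts (adjusted p = 0.158) or without mB4 or mG3 (adjusted p = 0.188 and 0.184). Sparc lay between 49.3% and 53.1% in all 8 clones.

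The Lama1 share differed among clones. The XX clones had 0.274%, 19.5%, 24.4% and 14.3%, and the XY clones 49.9%, 55.2%, 37.7% and 61.9%. The groups did not overlap, and every XX clone lay below every XY clone and below the ES XX line from which it came. In a comparison added after these values were seen, the XX clones had a log2 odds difference of -2.94 (SE 1.01), which did not pass, with an edgeR adjusted p of 0.531. Of 11932 genes 0.0251% were called there. In clone 129 only 1 of 365 Lama1 counts was from the 129 copy (0.00694% to 1.52%).

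Prrx1 kept its lean to Cast in most clones. Clone 129 had 55.3%, and the other 7 clones had 24.5% to 36.5%, as the ES lines did with 34.5% and 32.6%. Monoallelic expression was called where at least 20 counts were present, the major copy had at least 85% and the exact binomial test passed. Over the 7 genes and 10 libraries 8 such calls were made. They were Lama1 in clones 129 and E1.2, Col1a1 in ES XX and in E1.2, Postn in both ES lines and in mB4, and Pdgfrb in ES XY. The call was made for 5.87% of genes in ES XX, 5.12% in ES XY, 8.37% in clone 129, 6.69% in E1.2 and 5.83% in mB4, and 21.4% of genes had it in at least 1 clone. Col1a1 in E1.2 rests on 36 counts and Postn in mB4 on 30.

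Expression in a single clone was described by size alone, as an FPKM of at least 1 that was at least 4 times the next clone. Of the 7 genes only Acta2 met it, in G4, and 1.01% of 14899 genes met it. At an FPKM of at least 0.1, which 1.79% of genes met, Postn and Pdgfrb met it in E1.2 as well. E1.2 held 84 of the 151 genes that met the first rule, G4 held 21 and clone 129 held 16.

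In G4 the list genes that met the same rule were Acta2, Myh11, Cyr61 and Emcn. Myh11, the heavy chain of smooth muscle myosin, was at 11.1 FPKM in G4 and 0.747 FPKM or less in the other clones, and at 0.0344 and 0.0832 FPKM in the ES lines. Cyr61, a matricellular protein that serum induces, was at 97.9 FPKM in G4 and at 2.20 to 11.5 FPKM in the other clones. Emcn, an endothelial sialomucin, was at 2.91 FPKM in G4 and 0.535 FPKM or less in the others. Tagln was highest in G4 too, at 1.42 FPKM against 0.705 FPKM or less, and Des and Pdgfrb were at 0.0131 and 0 FPKM there.

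In E1.2 the list genes that met it were Col3a1, Lum, Dcn, Col5a2, Smoc2 and Gfap. Col3a1, the type III collagen chain, was at 24.2 FPKM in E1.2 and 1.79 FPKM or less in the other clones. Lum and Dcn, proteoglycans that bind collagen fibrils, were at 6.54 and 3.02 FPKM, and at 0.621 and 0.155 FPKM or less in the other clones. Col5a2 was at 1.84 FPKM and Smoc2, a relative of Sparc, at 11.8 FPKM, while Gfap, the intermediate filament of astrocytes, was at 5.32 FPKM. Of the 15 fibroblast genes 9 were highest in E1.2, where 21.6% of all genes were highest. Col1a1 was not among them, at 0.161 FPKM in E1.2, and Acta2 was at 0.349 FPKM there. The 129 share of Pdgfrb in E1.2 was 20.5% of 151 counts (14.4% to 27.9%) and that of Postn 66.8% of 265 counts (60.8% to 72.4%), against 78.6% or more of either gene in the ES lines.

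Among the other clones mG3 had Lama4, a laminin chain of vessels and muscle, at 9.64 FPKM against 0.714 FPKM or less, and C2 had Fbln5 at 1.04 FPKM against 0.0574 FPKM or less. These clones have 1 library each, so these values have no replicate check. Whether other cells grew beside the progenitors in these cultures was not tested.

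**Figure D5:**
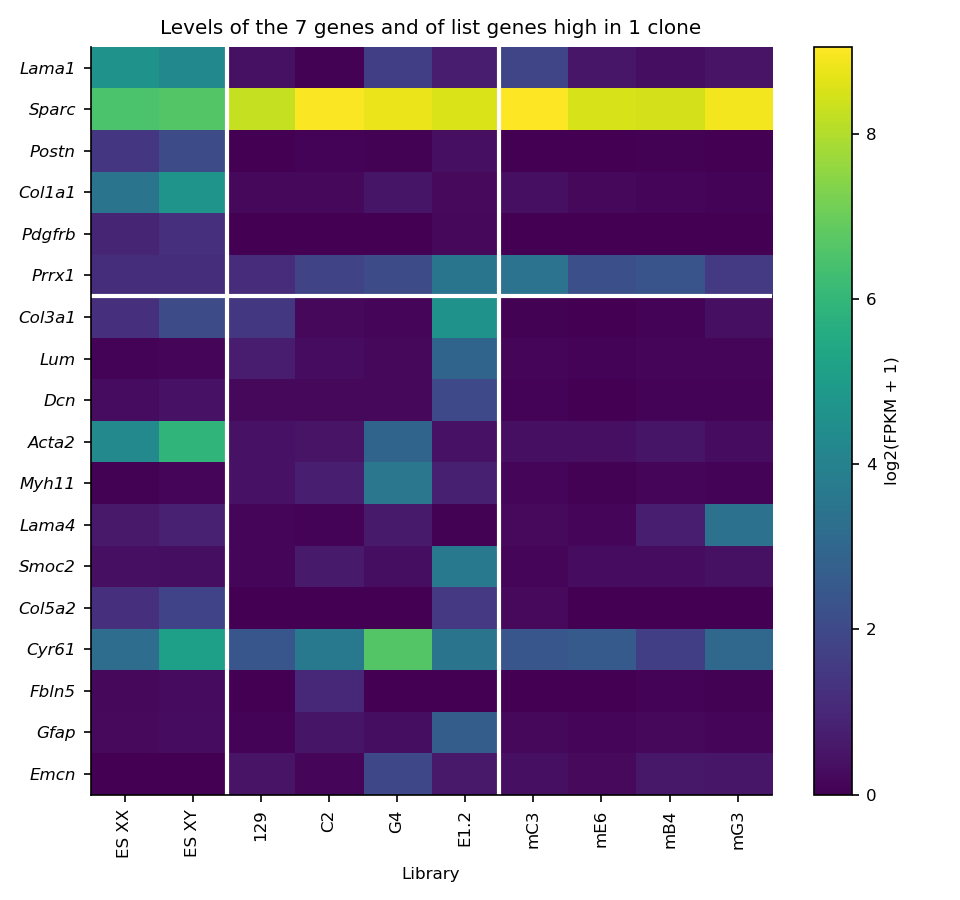
log2(FPKM + 1) (colour) of the 7 genes and of list genes high in 1 clone (vertical axis) in the 10 libraries (horizontal axis, white lines between ES lines, XX clones and XY clones). Acta2, Myh11, Cyr61 and Emcn are brightest among clones in G4, and Col3a1, Lum, Dcn, Smoc2, Col5a2 and Gfap in E1.2.

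Genes most like each of the 7 were named by Pearson's r of log2(FPKM + 1) over the 10 libraries among 11195 autosomal genes, as a description, since 2 ES libraries set most of these patterns. The gene most like Postn was Pdgfrb (r = 0.998), followed by Ap1s3 and Bst2. Pdgfrb was in turn like Bst2 (r = 0.999), Ap1s3 and Arhgdib. Col1a1 was like Ddx60 (r = 0.998) and Dsp, Lama1 like Steap2 (r = 0.987), Rab39 and Dcaf17, and Sparc like Fads3 (r = 0.994), 1300002E11Rik and Slc30a7. Acta2 was like Sulf1 (r = 0.973), Pex5 and Tesk2. Prrx1 had the weakest likeness, with F930015N05Rik (r = 0.942), Gm684 and S1pr1.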

How the data were processed

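Counts per gene and copy, FPKM and 129 shares came from 1 deposited table of 10 libraries. Reads were aligned with TopHat 1.4.0 and FPKM made with Cufflinks 1.3.0 in the build mm9, per the submitters' processing notes, which also name SAMtools. How the authors assigned the deposited counts to the copies is not given in the sources used here, and nothing there says that counting used strand. In the table, 21.1% of genes overlap another listed gene, whose reads may be shared. The deposited FPKM were used as given. The other deposited values, the 129 ratios, were read as text and the shares recomputed from the counts. Total counts per library were 61375911 to 119266777. 2 repeat libraries, of clones C2 and mC3, are not analysed here.

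Counts of both copies were summed, normalised by TMM and tested with edgeR 4.0.16 (filterByExpr, quasi-likelihood F test, Benjamini-Hochberg over all genes tested, threshold 0.05), with the line as covariate for NPC against ES. Differences of share were tested in edgeR on the counts of each copy with library terms. Autosomal genes with at least 20 counts in both ES lines and in 6 clones entered, and fewer clones were required where 1 was left out. SE is the fold change over the square root of F. DESeq2 1.42.0 and limma 3.58.1 on log2(FPKM + 1) were alternatives, which understates changes of low genes. Scripts were tested on simulated data. Named list genes are the up to 3 largest falls and rises per list past the threshold and those meeting the single-clone rule, and a few others were chosen after their values were seen (Lamb1, Lamc1, Tagln, Prrx2, Pdgfa, Pdgfra, Fn1, Thy1, Fbln2 and Twist2). 1 gene that these rules name is not reported here. The 7 genes and the 14 lists were chosen with earlier results of these data known. With 1 library a clone, p-values measure the spread between these clones.

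Of the other lists, parietal endoderm had 2 genes that rose, 2 that fell and 8 that did not pass. Endothelium had 1, 3 and 3, neural crest and Schwann 2, 2 and 2, and neural progenitor 13, 1 and 5. Over all genes tested 33.3% rose and 29.7% fell. GENCODE vM1 gave exons, and RefSeq promoters of GRCm38.p6 were used for 4 of the 7 genes. Promoters on chromosome 18, where Pdgfrb lies, were left out.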

Additional observations from a re-analysis of the deposited data

Results flagged for a closer look

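Among the 4 clones of a line, a clone was noted where its gap to the nearest other clone exceeded Dixon's 95% critical value of 0.829 of the group's range. Of the 21 groups of 4 values looked at, 4 were noted, and chance notes about 1 in 20. Acta2 was 6.52 FPKM in G4, with the other XX clones at 0.342 to 0.376 FPKM. Col1a1 was 0.422 FPKM in G4, with the other XX clones at 0.141 to 0.161 FPKM. Pdgfrb was 0.149 FPKM in E1.2, with the other XX clones at 0 to 0.00264 FPKM. Lama1 was 2.66 FPKM in mC3, with the other XY clones at 0.259 to 0.445 FPKM, while clone G4 of the XX line had 2.24 FPKM.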

How the results depend on the processing

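Of 237 tested values of single genes recomputed under another setting, 208 kept their direction and their side of the threshold. Of 138 recomputed counts of genes, 102 stayed within 1.5 times the reported count. No paired analysis was possible because the replicate numbers only name clones and tie no clone to one of another group. For NPC against ES, 3 of the 7 genes were called with DESeq2, which gave no adjusted p for Lama1, Postn and Pdgfrb, and 3 to 7 when 1 library was left out. Leaving out 1 library gave Acta2 differences of -0.74 to 0.012 by counts. In the clones Acta2 counts cannot be told apart from those of Stambpl1. By those counts 1 gene, Acta2, was called for XX against XY clones with DESeq2. With 1 clone left out 0 to 1 were called there. Over all genes, 175 were called there, against 1945 with DESeq2, 468 and 428 with limma on log2(FPKM + 1) and log2(FPKM + 0.1), and 7 to 496 with 1 clone left out. By FPKM the Acta2 difference reversed, to 0.66 and 1.12 with the 2 pseudocounts. With 1 clone left out the XX against XY difference of Lama1 ran from -1.45 to 1.33, of Sparc from -0.21 to 0.070 and of Postn from -0.12 to 3.46.

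The interaction called 1 of the 7 genes and 294 genes in all with limma, against 15 by counts and 3 to 30 with 1 clone left out. For the 129 share in NPC against ES, 0 to 1 of the genes were called with 1 library left out, and the difference ran from -0.024 to 0.23 for Sparc and from -0.20 to 0.066 for Prrx1. For the share in XX against XY clones 3 genes of the table were called, and 1 to 8 with 1 clone left out. Monoallelic calls among the 7 genes numbered 8, and 4 at a major share of 95%, where 1865 genes had the call in at least 1 clone against 2931. By single-clone size 1 of the 7 genes, Acta2, met the rule, and 3 did at an FPKM of 0.1. By CPM of the counts 2 did, Postn and Pdgfrb in E1.2, and Acta2 did not. Acta2, whose counts are shared with Stambpl1, had a CPM of 57.6 in G4 and of 55.0 to 117.4 in the other clones. Over all genes 151 met the rule, 168 by CPM, 266 at an FPKM of 0.1 and 51 at 10 times the next clone. Without E1.2 7 of 14 fibroblast genes tested fell, and 6 of 15 without G4. The causes were not tested. Counts of 0 in Postn and Pdgfrb limit what can be said of single clones.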
